A study of Fraxinus excelsior with 182 samples.

Results

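The leaf transcriptomes of 182 European ash trees (*Fraxinus excelsior*) differed more along their first principal component than along any other, and the 60 trees at its 2 ends are described here. A principal component is the weighted sum of all genes along which samples spread most, and each tree has a score on it. Component 1 was computed from the log2(TPM + 1) values of 31003 gene models that reached 1 TPM in at least 19 trees, out of 42665 in all. The high end was the 30 trees with the highest scores, the low end the 30 with the lowest, and the remaining trees lay between. TPM (transcripts per 1000000 transcripts) is the abundance of a transcript corrected for its length and scaled so that the values of a tree sum to 1000000.

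All trees belonged to a Danish panel assembled to study ash dieback, a fungal disease. According to the labels, each tree gave 1 library of leaf RNA, and no treatment, age or genotype class separates the trees. Both ends therefore belong to the same group of the study, and a tree is at an end only through its own expression values. Because the trees were chosen by the values that are compared between the ends, differences in gene level or in shares of TPM are given as a description, with no test.

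A leaf transcriptome is usually dominated by a small set of very abundant transcripts, above all those for photosynthesis, and their proportions change as a leaf expands, matures and ages or meets stress. In TPM, a larger share for abundant genes leaves a smaller share for all others. RNA from a whole leaf also mixes cell types, so that fewer cells of a type and less RNA per cell cannot be told apart. The gene models at the 2 ends with the largest differences carry no function in the sources used here and are given by their identifiers.

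Component 1 held 30.5% of the variance of the 31003 genes, against 4.79% for component 2 and 3.68% for component 3. High-end scores were 68.4 at the lowest, 115.8 at the median and 170.7 at the highest, and low-end scores were -79.5, -59.5 and -52.6. The scores were lopsided, with 68 trees above 0 and the others below, and the high-end trees were spread more widely (SD 33.7) than the low-end trees (SD 6.32). There was no gap at either boundary. Ash95, the last tree inside the high end, scored 68.4 and Ash1, just outside, 66.7. At the other boundary, Ash101 scored -52.6 inside the low end and Ash209 -51.9 outside it. Both cuts therefore fell between trees with close scores. The tree after Ash1, Ash79, scored 54.8, and whether the trees form clusters was not tested.

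**Figure D1:**
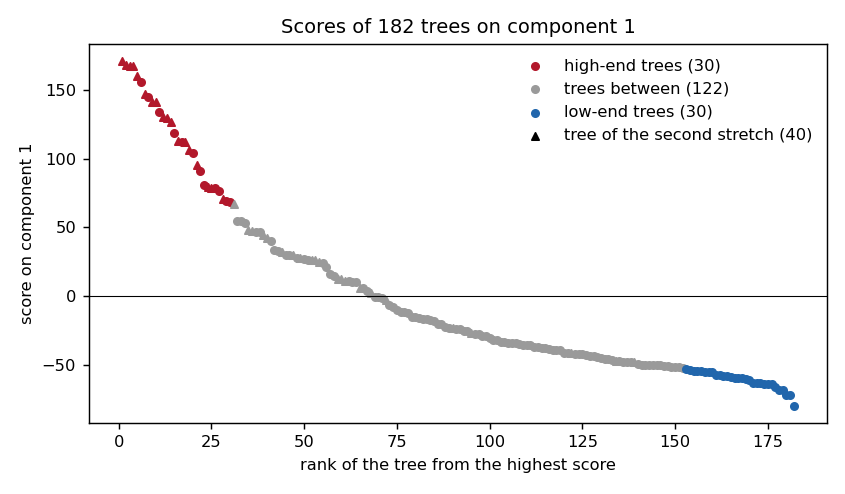
Score on component 1 (vertical axis, no unit) of each of the 182 trees against its rank from the highest score (horizontal axis); colours give the high end, the low end and the trees between, and triangles the 40 trees of the second stretch of run identifiers. The high-end scores fall steeply across 68.4 to 170.7, whereas the low-end scores crowd within -79.5 to -52.6.

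The trees of the high end were also less alike. Over the genes of the component, the correlation between the log2 values of 2 high-end trees ranged across 0.831 to 0.937 (median 0.905), against 0.926 to 0.956 (median 0.945) for 2 low-end trees. Pairs with 1 tree from each end gave 0.692 to 0.874 (median 0.799). A gene's SD across trees had a median of 0.423 log2 units in the high end and 0.278 in the low end, and 26213 genes (84.5%) had the larger SD in the high end. These correlations are across genes, which are not independent replicates. They and the SDs come from the values that gave the scores, so they are not separate from the wider spread of the high-end scores.

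With the libraries listed by run identifier, the Ash numbers of the trees fell by over 100 at 2 places, which set off a second stretch of 40 trees. The 2 trees listed after it, Ash44 and Ash184, were counted with those before it as the other trees. The labels do not say what this stretch stands for, and it was noticed after the values were seen. It held 18 of the 30 high-end trees, 22 of the trees between and 0 low-end trees, and the other trees held 12, 100 and 30. The mean score was 64.3 ± 66.6 (SD, n = 40) in the second stretch and -18.1 ± 48.2 (SD) in all the other trees. The difference of 82.4 had a two-sided permutation p of 1e-05, the smallest that 100000 resamples can give (Benjamini-Hochberg adjusted p = 7e-05 over 7 tests). Since no low-end tree is in the second stretch, a comparison of the ends within it cannot be made, and values for the 12 high-end trees outside it are given beside the main results. The part of the stretch in these results was otherwise not tested.

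The Ash number of a tree is a further label that the component did not use. Over all 182 trees its relation with the score was weak, with Pearson's r = 0.00957 (permutation p = 0.9, adjusted p = 0.96) and Spearman's rho = 0.0527 (p = 0.48, adjusted p = 0.84). Without the 2 trees whose numbers lay farthest from the median, r was 0.000273. Within the trees outside the second stretch, higher numbers went with higher scores, with r = 0.287 (permutation p = 0.00047, adjusted p = 0.0011) and rho = 0.2965 (p = 0.00037, adjusted p = 0.0011), and r was 0.284 without the 2 farthest trees. Within the 40 trees of the second stretch, r was -0.0717 (permutation p = 0.66, adjusted p = 0.92) and rho was -0.00938 (p = 0.96, adjusted p = 0.96), and r was 0.0857 without the 2 farthest. Within either set of trees the number rose with the run identifier almost throughout, so number and run order cannot be told apart there. The split into these sets was noticed after the values were seen. What the number records about a tree is not stated in the labels.

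In the high-end trees, fewer genes made up more of the RNA. The 10 most abundant genes of each high-end tree together held 6.75% of its TPM at the lowest, 9.53% at the median and 19.99% at the highest, against 4.25%, 5.10% and 7.63% in low-end trees. The means were 10.5 ± 3.17% in the high end and 5.28 ± 0.779% in the low end (SD, n = 30 each). The ranges overlapped, with 24 of 30 high-end trees above every low-end tree. The single most abundant gene held 2.17 ± 1.28% in the high end and 0.921 ± 0.319% in the low end. Without the trees of the second stretch, the 10 most abundant genes held 9.84 ± 2.24% in the 12 remaining high-end trees.

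The excess lay at the very top of the abundance order. The 100 most abundant genes held 25.2 ± 4.16% (20.3% to 37.6%) of TPM in high-end trees and 18.8 ± 0.787% (17.3% to 20.7%) in low-end trees, and 28 high-end trees were above every low-end tree. The 1000 most abundant held 53.2 ± 3.91% in the high end and 49.1 ± 1.11% in the low end. The gap between the ends was thus 5.18 percentage points for 10 genes, 6.40 for 100 and 4.14 for 1000. Leaving out the 10 genes with the highest mean TPM over all trees and scaling the rest to 1000000 brought the gap for 10 genes down to 1.42 points and that for 100 genes to 2.64.

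Along the whole axis, the share of the 10 most abundant genes had medians of 5.10%, 5.24%, 5.68%, 6.05%, 6.79% and 9.53% in the 6 successive sixths of the trees, lowest to highest score. Its correlation with the score was 0.792 over all trees, and 0.571 within the trees between the ends. Within the high end it was 0.507 and within the low end 0.174. It was 0.740 among the 40 trees of the second stretch and 0.796 among the others. The shares and the scores come from the same TPM values, and these coefficients are descriptions.

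**Figure D2:**
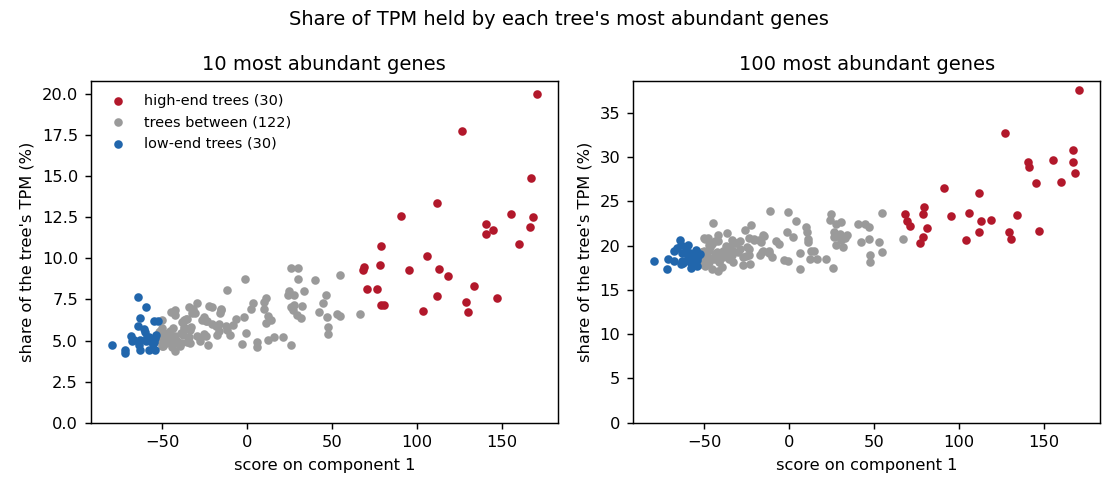
Share of a tree's TPM (vertical axes, %) held by its 10 (left) and 100 (right) most abundant genes against its score on component 1 (horizontal axes, no unit), 1 point per tree. High-end trees reach 19.99% and 37.6%, whereas no low-end tree exceeds 7.63% and 20.7%.

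The number of genes detected was nearly the same at both ends. High-end trees had 33522 ± 601 gene models above 0 TPM and low-end trees 33579 ± 530, and at least 1 TPM was reached by 26873 ± 896 in the high end and 26877 ± 334 in the low end. Within the high end, however, the number at 1 TPM or more decreased with the score (r = -0.770, n = 30), whereas within the low end it increased (r = 0.494, n = 30). The depth of the libraries is unknown, because TPM keeps no record of it.

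Gene by gene, 3427 (11.1% of those in the component) averaged at least 1 log2 unit higher in the high end, and 4247 (13.7%) at least 1 unit lower. For 1132 genes (3.65%) every high-end tree was above every low-end tree, and for 2730 (8.81%) every high-end tree was below. The component picks trees that differ, so nothing is read from these counts beyond their size. Differences ranged from -5.85 to 9.04 with a median of -0.05, and 15249 genes (49.2%) lay within 0.5 of no difference. After median-of-ratios scaling of the same trees the median became 0.06, a shift just over 0.1, and 4002 genes were higher and 3633 lower. Which direction held more genes thus depended on the scaling. With the 12 high-end trees outside the second stretch, 3540 genes were higher and 3541 lower, and the differences of all genes correlated with the main ones at 0.981.

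The few largest differences, those of at least 4 log2 units, were mostly positive. At least 2 log2 units separated the ends for 802 higher and 1184 lower genes, at least 4 units for 89 higher and 27 lower genes, and at least 5 units for 33 higher and 5 lower genes. Of all 42665 gene models, 26 had a median below 1 TPM in the low end and at least 50 TPM in the high end. The reverse held for 2. The log2(TPM + 1) scale understates differences of low genes.

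The higher and the lower genes held similar shares of TPM, each at its own end. The 3427 higher genes together held 38.3 ± 7.20% of TPM (25.9% to 55.8%) in high-end trees and 9.62 ± 1.12% (7.13% to 11.5%) in low-end trees. The 4247 lower genes held 11.8 ± 3.34% (5.65% to 17.3%) in high-end trees and 39.6 ± 1.65% (36.8% to 43.2%) in low-end trees. These sets were chosen by the same contrast, so the ranges could hardly overlap. They differed in evenness, since 2.04% of the higher genes held a fraction of 0.5 of that set's TPM in the high end, whereas 4.52% of the lower genes were needed for the same fraction of their set in the low end.

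Abundant genes were past the 1-unit bound more often than genes of low level, on a scale that understates differences of low genes. With a pseudocount of 0.1 in place of 1, 4861 genes in all were higher and 5844 lower. The level classes were not recounted on that scale. Among the 581 genes with a mean of at least 256 TPM over all trees, 23.1% were higher and 40.4% lower, with a median difference of -0.54. Among the 7747 genes with a mean of 1 to 4 TPM, 817 (10.5%) were higher and 661 (8.53%) lower, with a median of 0.03. The 581 abundant genes held 40.8% of TPM in the high end and 38.6% in the low end. Their total share thus differed little while its distribution among them did.

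The identity of the most abundant genes changed along the axis. Of the 10 genes with the highest mean in the high end, 3 (30% of either list) were also among the 10 of the low end, as were 36 of 100 (36%) and 594 of 1000 (59.4%). The 100 most abundant genes of the high end held 24.3% of TPM there and 10.4% in the low end. Those of the low end held 17.7% of TPM in the high end and 18.4% in the low end. These 100 genes of the low end thus had nearly the same joint share at both ends. In the high end, 61 of them were at least 1 log2 unit lower and 15 at least 1 unit higher. The near tie did not hold at other list lengths. The 10 most abundant genes of the low end held 2.99% of TPM in the high end and 5.08% in the low end. For its 1000 most abundant genes the shares were 43.1% and 48.5%.

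A pair of gene models with adjacent identifiers led the high end. Fe_g25603 had 1089 TPM at the lowest, 18952 at the median and 56308 at the highest in high-end trees, against 65.4, 1309 and 5308 TPM in low-end trees, a difference of 4.0 log2 units. Fe_g25602.2 had 809, 14444 and 48515 TPM in high-end trees, against 41.4, 945.9 and 6249 TPM in low-end trees (difference 3.93). Both varied widely within each end, and their ranges overlapped between the ends. Fe_g25603 was the most abundant gene of 18 high-end trees and of 0 low-end trees. On average it held 1.97% of TPM in the high end and 0.164% in the low end, where it ranked 42nd. Its difference was 4.20 without the second stretch.

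A second pair with adjacent identifiers separated the ends without overlap. Fe_g14287 had 5940 TPM at the lowest, 11540 at the median and 20181 at the highest in high-end trees, against 1719, 2571 and 3971 TPM in low-end trees (difference 2.18). Fe_g14288 had 4915, 9279 and 18479 TPM in high-end trees, against 1373, 1999 and 3312 TPM in low-end trees (difference 2.32). Every high-end tree had more of each than any low-end tree. Fe_g15315, the other gene among the 5 most abundant of the high end, did not overlap either, with 6067, 10386 and 14101 TPM in high-end trees and 2621, 4099 and 5415 TPM in low-end trees (difference 1.38). Salmon, the quantification tool of the study, divides reads among similar sequences, and whether adjacent gene models are copies of each other was not analysed here.

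Among the 5 most abundant genes of the low end, 2 separated the ends. Fe_g19537 had 931 TPM at the lowest, 1687 at the median and 2796 at the highest in high-end trees, against 5517, 7361 and 8732 TPM in low-end trees (difference -2.13). Fe_g34637 had 2.09, 230.5 and 2428 TPM in high-end trees, against 4935, 7323 and 10210 TPM in low-end trees (difference -5.53). No high-end tree reached the low-end range of either gene. The behaviour within the high end differed, since Fe_g19537 ran from 931 to 2796 TPM there and Fe_g34637 from 2.09 to 2428 TPM. Without the second stretch the difference of Fe_g34637 was -4.03.

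The remaining abundant genes overlapped between the ends. Fe_g32504, the gene with the highest mean over all trees, had 261 TPM at the lowest, 3411 at the median and 20664 at the highest in high-end trees, against 3800, 6932 and 21607 TPM in low-end trees (difference -1.06). Its difference was -0.55 without the second stretch, below the 1-unit bound. Fe_g6686 had 134.2, 1589 and 7433 TPM in high-end trees, against 1673, 4117 and 17839 TPM in low-end trees (difference -1.55). Fe_g8233 had 3047, 6422 and 9806 TPM in high-end trees, against 2904, 4489 and 6480 TPM in low-end trees (difference 0.46), although it ranks among the 5 most abundant genes of the low end. The most abundant gene was Fe_g19537 in 13 low-end trees, Fe_g34637 in 8, Fe_g32504 in 7 and Fe_g39090 in 2.

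**Figure D3:**
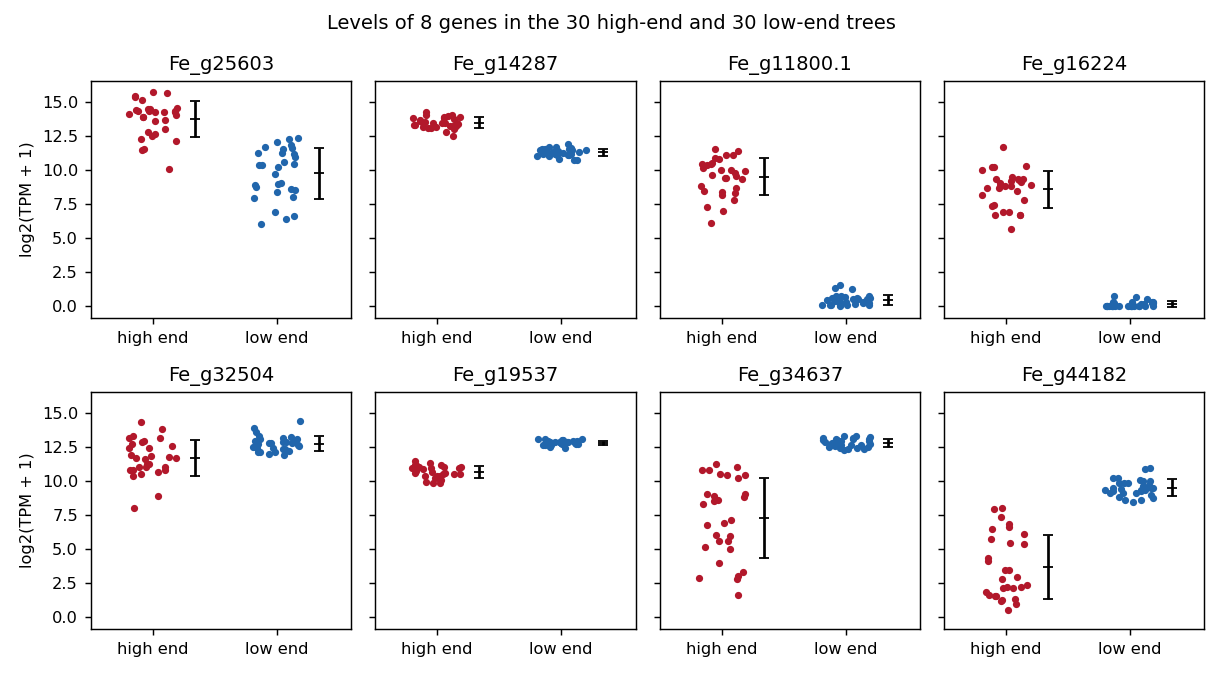
log2(TPM + 1) of 8 genes (1 panel each) in the 30 high-end trees (left in each panel) and the 30 low-end trees (right), 1 point per tree; the bar beside each group is its mean ± SD. Fe_g11800.1 and Fe_g16224 lie near 0 in the low end and well above it in the high end. Fe_g34637 and Fe_g44182 are lower in the high end, where they scatter widely (medians 230.5 and 6.25 TPM). Fe_g32504 and Fe_g25603 overlap between the ends.

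The 10 genes with the largest positive differences had low-end medians of 0 to 2.58 TPM. Fe_g11800.1 had 68.9 TPM at the lowest, 871.9 at the median and 2978 at the highest in high-end trees, against 0.0318, 0.281 and 1.94 TPM in low-end trees (difference 9.04). Fe_g16224 had 50.01, 460.8 and 3402 TPM in high-end trees, and in low-end trees it was listed at 0 in 18 of 30 and reached 0.741 TPM at the highest (difference 8.48). For both genes the ends were far apart. At 10 TPM or more, Fe_g11800.1 was found in 30 high-end, 50 intermediate and 0 low-end trees, and Fe_g16224 in 30, 27 and 0. The difference of Fe_g11800.1 was 8.37 without the second stretch.

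The other 8 of these genes differed by 6.04 to 6.85. Fe_g39363 had a median of 190.8 TPM in the high end and 0 in the low end (difference 6.85), and Fe_g38709 208.1 TPM in the high end and 0 in the low end (difference 6.79). Fe_g33750 had a median of 159.04 TPM in the high end and 0.190 in the low end (difference 6.70). The lowest high-end value of Fe_g38709, 1.43 TPM, lay below its highest low-end value of 5.55 TPM. Fe_g24198 (difference 6.37) also overlapped, with 0.754 TPM at the lowest in the high end and 1.33 TPM at the highest in the low end. Fe_g14667, Fe_g39158, Fe_g1155.1 and Fe_g39159 (differences 6.51, 6.23, 6.15 and 6.04) did not overlap. Fe_g39158 and Fe_g39159 have adjacent identifiers.

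The 10 genes with the largest negative differences did not overlap between the ends. Fe_g44182 had 0.409 TPM at the lowest, 6.25 at the median and 262 at the highest in high-end trees, against 360, 704 and 2009 TPM in low-end trees (difference -5.85). Fe_g12709 had 0, 0.801 and 27.7 TPM in high-end trees, where it was listed at 0 in 13, against 58.3, 101.2 and 161.1 TPM in low-end trees (difference -5.29). Fe_g25509 had 0, 0.225 and 7.71 TPM in high-end trees, against 25.6, 41.04 and 51.3 TPM in low-end trees (difference -4.51). All 10 genes were above 0 in every low-end tree, and in the high end their lowest values were 0 to 2.09 TPM. Besides Fe_g34637, the other members were Fe_g38178 (-5.31), Fe_g31824 (-5.10), Fe_g43339 (-4.78), Fe_g9301.2 (-4.64), Fe_g35402.1 (-4.58) and Fe_g20804 (-4.57).

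Levels of these genes changed unevenly along the axis. In the 6 sixths of the trees, lowest to highest score, Fe_g11800.1 had medians of 0.281, 1.46, 2.67, 8.62, 92.3 and 871.9 TPM. Fe_g16224 stayed below 1 TPM through the fourth sixth and then had 64.9 and 460.8 TPM. Fe_g34637 had 7323, 6123, 5497, 4715, 3375 and 230.5 TPM, with the largest step between the last sixths. Fe_g44182 declined earlier, with 704, 606, 462, 251, 79.2 and 6.25 TPM. Fe_g35402.1 was nearly level over the first sixths, with 344, 358, 352, 325, 193.9 and 18.3 TPM.

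**Figure D4:**
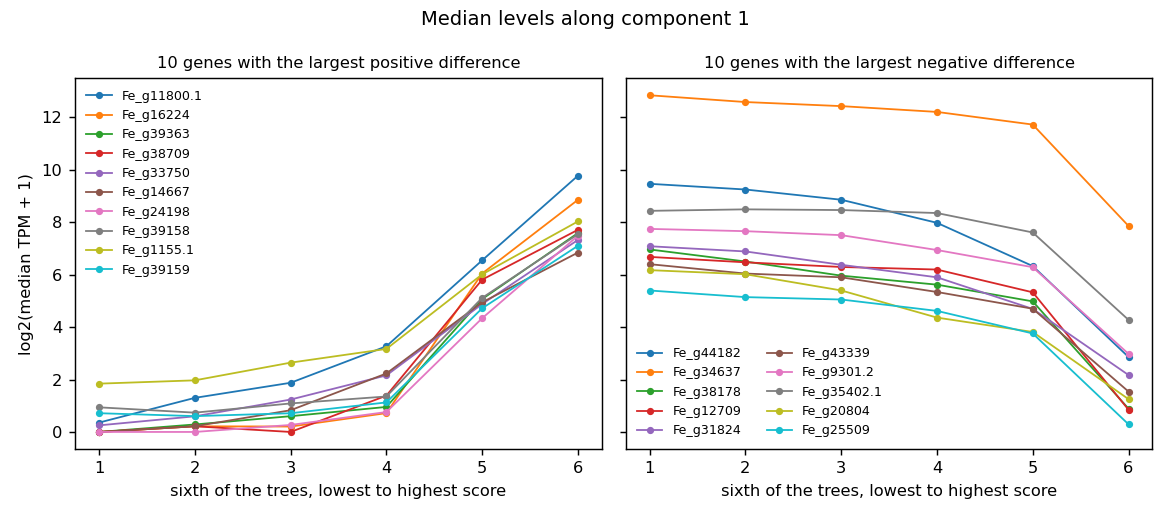
log2(median TPM + 1) (vertical axis) of the 10 genes with the largest positive (left) and the 10 with the largest negative differences (right) in successive sixths of the trees by score (horizontal axis, 30 or 31 trees each). Lines on the left rise mostly after the fourth sixth, as for Fe_g16224, with 0.644 TPM in the fourth, 64.9 in the fifth and 460.8 in the last. Lines on the right fall most into the last, as for Fe_g34637, with 3375 TPM in the fifth sixth and 230.5 TPM in the last.

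Genes with successive identifiers tended to share their direction. Where a gene was at least 1 unit higher and the next identifier was also in the component, the next gene was higher too in 668 of 2467 cases (27.1%), against 2431 of 22065 (11.02%) for all genes with a next identifier. For lower genes it was 823 of 3005 (27.4%), against 3061 of 22065 (13.9%). No test was made of these shares. Of the gene models outside the component, 3806 ± 354 were above 0 TPM in high-end trees and 3788 ± 355 in low-end trees. A small part of them, 1.11%, reached 1 TPM in at least 9 high-end trees and in 0 low-end trees, while 10 models (0.0857%) did the reverse. Together these 11662 models held 0.110% of TPM at the lowest, 0.138% at the median and 0.546% at the highest in the high end, against 0.0926%, 0.104% and 0.147% in the low end, and the ranges overlapped.

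The gene models that the study annotated because their expression was related to dieback damage mostly differed by less than 1 unit between the ends. All such genes in the 20 lists but 1 were in the component, of which 2 (1.48%, against 11.1% of all genes) were at least 1 unit higher and 5 (3.70%, against 13.7%) at least 1 unit lower. Of these genes, 0 separated the ends without overlap, against 3.65% of all genes above and 8.81% below. Their median difference was 0.02, against -0.05 over all genes. The list was drawn up by the study from these same trees, and Fe_g42181.2, outside the component, had a median of 0.392 TPM in the high end and 0.719 TPM in the low end.

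The OVATE family are transcriptional repressors known from fruit shape in tomato and from growth in Arabidopsis. The study's annotated genes included 3 members, all in the component and at low levels. Of these 3, 1 was at least 1 unit lower at the high end (13.7% of all genes were). Whether further genes of the component belong to the family is not known here. Fe_g34397 had 0 TPM at the lowest, 0.212 at the median and 2.41 at the highest in high-end trees, against 0.659, 3.91 and 10.6 TPM in low-end trees (difference -1.70). Fe_g20799 had 0.0268, 0.722 and 1.77 TPM in high-end trees, against 1.07, 2.12 and 3.999 TPM in low-end trees (difference -0.95). Fe_g34396, which set the sign of the component and is therefore no finding, had 0, 0.0230 and 0.916 TPM in high-end trees, against 0, 1.11 and 5.17 TPM in low-end trees (difference -0.95). It was listed at 0 in 15 high-end trees and in 1 low-end tree, and all 3 genes overlapped between the ends. Along the 6 sixths all 3 genes were higher in the fourth sixth than in the first or the last, so their levels were not monotonic. Fe_g34396 had medians of 1.11, 1.96, 2.46, 2.77, 0.864 and 0.0230 TPM. Fe_g34397 had a median of 3.91 TPM in the first sixth, 6.92 in the fourth and 0.212 in the last. Fe_g20799 had 2.12, 3.21 and 0.722 TPM in the same sixths. The median difference of the 3 genes, Fe_g34396 included, was -0.95, and it was -2.45 with a pseudocount of 0.1 and -0.19 with a pseudocount of 10.

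The MADS-box transcription factors on the study's list include homologues of SOC1, a promoter of flowering in Arabidopsis, SVP, a repressor of flowering there, and JOINTLESS, which is needed for the abscission zone of the tomato flower stalk. Of these 11 genes, 0 passed 1 unit in either direction (11.1% of all genes were higher and 13.7% lower) and 0 separated the ends (3.65% and 8.81% of all genes did), and with so few genes nothing is read from these counts. The SVP-like gene Fe_g22999 had 0.582 TPM at the lowest, 9.41 at the median and 23.9 at the highest in high-end trees, against 1.06, 16.3 and 27.7 TPM in low-end trees (difference -0.77). Along the 6 sixths, lowest to highest score, its medians were 16.3, 23.4, 20.6, 24.1, 14.3 and 9.41 TPM, so its level was not monotonic. Fe_g36254, the most abundant of the JOINTLESS-like genes, had 42.2, 88.6 and 128.1 TPM in high-end trees, against 70.5, 108.9 and 149.3 TPM in low-end trees (difference -0.34).

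Of the 4 SOC1-like genes, Fe_g40351.1 had the largest difference (0.51), with 0.289 TPM at the lowest, 23.7 at the median and 42.7 at the highest in high-end trees, against 0.573, 14.6 and 24.3 TPM in low-end trees. The differences of Fe_g19663, Fe_g40350 and Fe_g40353 were 0.38, -0.32 and -0.04. The other 5 JOINTLESS-like genes, Fe_g18373.1, Fe_g18374, Fe_g18375, Fe_g18376 and Fe_g18379, differed by -0.10, -0.34, -0.17, -0.32 and 0.24. The sign turned in at least 1 alternative setting for Fe_g40350, Fe_g40353 and each of these 5, so no direction is given for them.

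Of the other annotated genes past 1 unit, 1 higher and 2 lower belonged to the list of annotated genes in no other list. The rest came from separate lists. Fe_g27355, with no annotation, had 1.85 TPM at the lowest, 66.6 at the median and 228 at the highest in high-end trees, against 0, 20.3 and 125.4 TPM in low-end trees (difference 1.47). Fe_g16647, of the iron/ascorbate-dependent oxidoreductase family, had 6.01, 14.5 and 87.9 TPM in high-end trees, against 1.51, 6.71 and 18.9 TPM in low-end trees (difference 1.24). Fe_g36128, a chaperonin 10 subunit, a partner in protein folding, had 93.7, 211.5 and 383 TPM in high-end trees, against 206, 442 and 634 TPM in low-end trees (difference -1.04). All 3 overlapped between the ends.

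Lower genes at low levels were Fe_g45829, a zinc finger protein, with a median of 0.190 TPM in the high end and 1.62 TPM in the low end (difference -1.02), and Fe_g20816, with no annotation, with 1.39 TPM in the high end and 3.92 TPM in the low end (difference -1.08). Fe_g10115, a rhodanese-like gene named after its values were seen, had a median of 27.4 TPM in the high end and 55.03 TPM in the low end (difference -1.01). This call lay very close to the bound and was not examined in the alternative settings. The B-box zinc finger gene Fe_g21102 came close to the bound, with 1.88 TPM in the high end and 5.18 TPM in the low end (difference -0.97). Fe_g32756, an ethylene-responsive transcription factor gene, also came close (difference -0.92), but its sign turned in 1 alternative setting. Several of these calls were close to the bound, and the difference was below 1 unit in 8 of 12 alternatives for Fe_g45829, in 5 of 13 for Fe_g36128, in 4 of 13 for Fe_g20816, in 2 of 13 for Fe_g34397 and in 1 of 13 for Fe_g16647.

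Smaller differences were seen in the remaining lists. The 4 NF-YA and TOPLESS-related genes, a CCAAT-binding subunit and corepressors of transcription, had differences of 0.17 to 0.48 (median 0.33), as 14595 of the 31003 genes had one above 0, and 0 of the 4 passed 1 unit. Among them, Fe_g14387 had a median of 8.51 TPM in the high end and 5.80 TPM in the low end (difference 0.48), and Fe_g6059 4.49 TPM in the high end and 3.08 TPM in the low end (difference 0.45). The 8 membrane transport genes had a median difference of -0.14, with 3 above 0 and 5 below. Of those below, Fe_g24472, with a heavy-metal-associated domain, had 10.6 TPM in the high end and 22.6 TPM in the low end (difference -0.95). Fe_g40685, of the MATE efflux family, had 37.3 TPM in the high end and 64.9 TPM in the low end (difference -0.86). The 4 plastid pigment and isoprenoid genes had a median difference of -0.005, with 2 above 0 and 2 below. Among them, Fe_g39558, for an enzyme of the plastid isoprenoid route, had 9.18 TPM in the high end and 14.4 TPM in the low end (difference -0.63). Of the cell wall genes, Fe_g18326 differed by 0.58 and Fe_g7485 by -0.55.

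**Figure D5:**
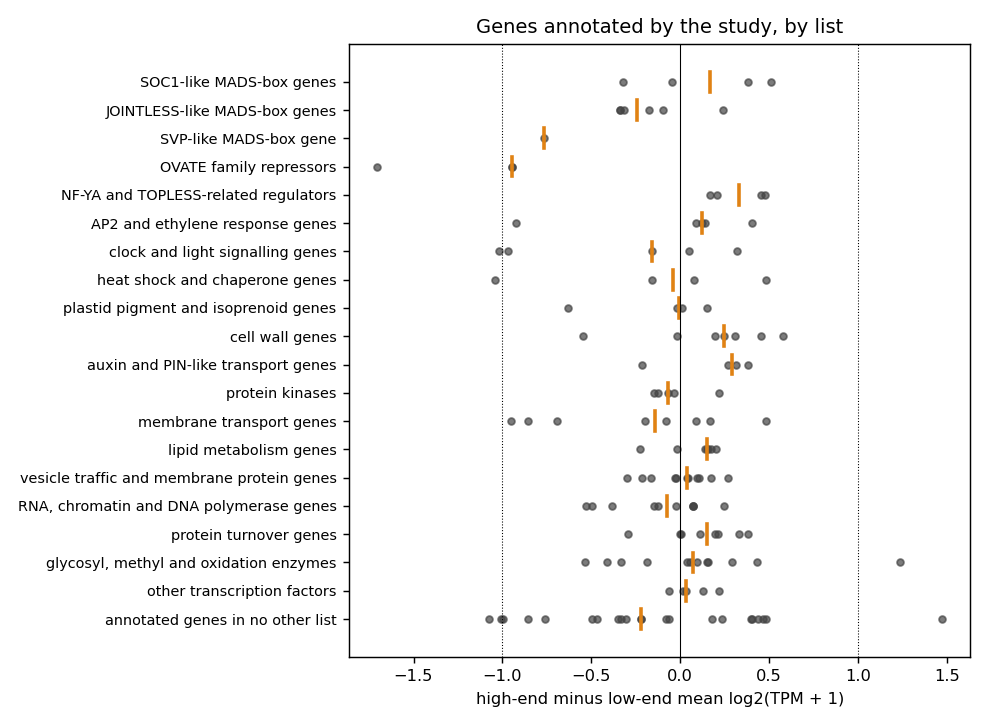
High-end minus low-end mean log2(TPM + 1) (horizontal axis) of the annotated genes in the component, by list (rows); points are genes, orange bars the median of a list and dotted lines a difference of 1 unit either way. Of the points, 2 lie past the right and 5 past the left dotted line, and the OVATE genes lie at -1.70 to -0.95, where the side of Fe_g34396 was fixed by the rule that set the sign of the component.

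The trees with the extreme scores show the contrast in single libraries. In Ash94, with the highest score, the 10 most abundant genes held 19.99% of TPM, Fe_g25603 alone had 56308 TPM, Fe_g11800.1 had 2209 TPM and Fe_g34637 had 2.09 TPM. In Ash61, with the lowest score, the 10 most abundant genes held 4.71% of TPM, Fe_g25603 had 121.2 TPM, Fe_g11800.1 had 0.291 TPM and Fe_g34637 had 8230 TPM. Trees beside the boundaries were less different from their neighbours. Inside the high end, Ash95 had 17187 TPM of Fe_g25603 and 1781 TPM of Fe_g34637, and Ash1 just outside had 6844 TPM of Fe_g25603 and 1561 TPM of Fe_g34637.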

How the data were processed

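Leaf RNA of 182 trees had been sequenced as 100 bp Illumina reads. The authors ran Trimmomatic on the reads, then estimated transcript abundance on the predicted coding sequences with Salmon 0.8, and tximport made the table. The deposited values are TPM, scaled by the authors to 1000000 per tree. TPM keeps no depth, so no counting interval was given.

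Components of log2(TPM + 1), centred per gene and not scaled, were computed with numpy 2.4.6 and pandas 2.3.3 in Python 3.11.15. The sign was set so that Fe_g34396 correlated negatively with component 1. Differences are means of log2(TPM + 1), high end minus low end, and a gene was called at an absolute difference of 1. Relations with labels were tested with scipy 1.17.1 and 100000 permutations, two-sided, and adjusted over 7 tests by Benjamini-Hochberg. Scripts were tested on simulated data.

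Genes named were 3 markers, the 10 largest differences in each direction, the 5 most abundant genes of each end, the 11 MADS-box genes and the 2 largest differences per other list, of which those that add to the text are printed. The trees, the markers and the 20 lists, made from the study's annotation of 136 genes, were chosen with earlier results of these data known. The annotation was held in part. No genome was used, so no positions or sequences are given.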

Additional observations from a re-analysis of the deposited data

How the results depend on the processing

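The ends are drawn from the values they are compared on, the depth behind each value is unknown, and each tree has 1 library, so technical spread cannot be separated from differences between trees. No paired analysis was possible because the labels define a single group with no shared replicate numbers. Component 1 held 22.4% to 39.4% of the variance over all alternatives, and at least 93.3% of the trees at each end were shared with the main choice, except when the component was recomputed over the trees outside the second stretch. The gaps in the share of TPM kept their direction throughout. The median difference changed sign in at least 1 alternative for 10 of the 20 lists, with main medians of -0.25 to 0.17, and so did 11 named genes and the small difference in the number of genes above 0 TPM. With a pseudocount of 10, 1250 genes were higher and 1668 lower, and the medians of the OVATE and of the NF-YA and TOPLESS lists were -0.19 and 0.15. With a pseudocount of 0.1 the OVATE median was -2.45. Leaving out the 10 genes with the highest mean TPM gave gaps of 1.42 and 2.64 percentage points for the 10 and 100 most abundant genes. With 18 trees at each end, 2060 genes were higher and 4351 lower without overlap, and with 45 trees 423 and 940; the distance between the ends and the number of trees that must not overlap both change with their size. Alternatives added after the data were seen concerned the second stretch. A component over the other trees shared 40% of the high-end trees, which is all 12 that it could share. It gave 2152 lower genes, 556 higher and 1295 lower genes without overlap, gaps of 3.03 and 3.35 percentage points for 10 and 100 genes, list medians of -0.51 for OVATE and 0.14 for annotated genes in no other list, and rho = 0.31 with the Ash number (permutation p = 0.00011). The 12 high-end trees outside the stretch gave 1809 higher genes without overlap.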

Other observations

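The size factor of a tree (the median ratio of its TPM values to the geometric means over all trees) was 0.950 ± 0.104 in high-end trees and 1.04 ± 0.0467 in low-end trees (SD, n = 30 each). Within the high end it decreased with the score (r = -0.747), and within the trees between the ends its correlation with the score was 0.0622. The 10 genes with the highest mean TPM over all trees held 8.92 ± 2.99% of TPM in high-end trees and 4.06 ± 0.551% in low-end trees. Among the trees between the ends, the most abundant gene was Fe_g32504 in 43, Fe_g8233 in 21 and Fe_g25603 in 14.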
